A study of Mus musculus with 18 samples.

Results

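Membrane and secreted proteases of 6 families were followed through a pooled CRISPR screen in MC38, a mouse colon adenocarcinoma line that grows as a tumour in C57BL/6 mice. The members were all guides whose target gene symbol begins with Adam, Mmp, Tmprss or Prss and a digit, begins with Rhbd, or is Bace1 or Bace2. They numbered 280 guides against 70 genes, 4 guides a gene, of 18146 guides in the screen, and no member was left out. The screen library was carried by MC38 cells implanted in 2 kinds of host, B6-Rag1-KO mutant mice and C57BL/6 wild-type mice, with 1 sequencing library from each. Rag1 is needed to rearrange antigen receptor genes, so a mouse without it makes no mature T or B cells, whereas the wild-type mouse has both. Both libraries share the cell line and the guide library, and the number of mice, the time of recovery and any pooling of tumours are not given in the sources used here. The series also holds RNA sequencing of MC38 cells and tumours with and without Mbtps1 knockdown, of which only the control libraries are used, to show which targeted genes have mRNA.

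ADAM proteins are membrane-anchored metalloproteases, several of which cut the outer parts of receptors, growth factors and adhesion molecules from the cell surface. Matrix metalloproteases (MMPs) degrade collagens and other matrix proteins, and most are secreted while a few are held in the membrane. TMPRSS proteins are serine proteases with a membrane anchor, and PRSS is a naming series for serine proteases of mixed location, many of them trypsin-like. Rhomboids cut or escort proteins within the membrane, and BACE proteins are membrane-bound aspartyl proteases. The set fell into 16 ADAM, 19 MMP, 10 TMPRSS, 20 PRSS, 3 rhomboid and 2 BACE genes. Not all of them are membrane proteins: 14 of the 19 MMP genes, among them Mmp2 and Mmp9, encode secreted enzymes, and trypsins such as Prss1 and Prss2 are secreted as well. Of the ADAM genes, 6 (Adam2, Adam7, Adam11, Adam18, Adam23 and Adam29) encode proteins known to lack a working protease site. The screen lists no guide under the symbol of the sheddase gene Adam17 or of the membrane-type collagenase gene Mmp14. The guides are named by the identifiers of the deposited table and, within a gene, numbered 1 to 4 in identifier order, since guide sequences are not used here.

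The Rag1-KO library held 19114273 reads and the C57BL/6 library 27142741, a mean of 1053 reads a guide in Rag1-KO and 1496 in C57BL/6. Abundance is given as CPM, reads per 1000000 reads of the library, and the comparison as the log2 ratio of C57BL/6 over Rag1-KO after adding 1 CPM to each, so that a positive ratio means more of the guide in C57BL/6 hosts. With 1 library per host no test of the difference between hosts can be made, and all statements describe these 2 libraries. The intervals given cover counting error of the reads only, and whether the reads carry molecular identifiers is not given here. Protease guides were 1.54% of all guides and took 1.61% of reads in Rag1-KO and 1.67% in C57BL/6 hosts. Their median abundance was 42.7 CPM in Rag1-KO hosts, with quartiles of 23.0 and 75.7, and 48.3 CPM in C57BL/6 hosts, with quartiles of 26.6 and 80.5. All 280 guides were read in both hosts, and 278 had the 20 reads over both libraries that a ratio was taken from. Across the 280 guides, abundance in the 2 hosts had a Spearman correlation of 0.72, against 0.74 across all guides. Both libraries share the guide library, and the labels do not say whether both hosts received the same pool of cells. The guide counts include no library from before implantation, so a ratio cannot tell a fall in C57BL/6 hosts from a rise in Rag1-KO hosts.

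Taken over the whole set, protease guides were about as abundant in one host as in the other and stood where the rest of the screen stood. Their median log2 ratio was 0.19, with quartiles of -0.44 and 0.76 (278 guides), beside 0.12 over all 18108 guides with enough reads and 0.08 over the 24 control guides, whose targets are named CTRL. Relative to the median of all guides the protease median was thus 0.07. A ratio above 0 was found for 161 protease guides (57.9%), where the share over all guides was 55.7%. At least 2-fold higher abundance in C57BL/6 was seen for 42 protease guides (15.1%, beside 14.9% of all guides) and at least 2-fold lower abundance for 29 (10.4%, beside 11.1%). With the ratios scaled to the median of all guides the split was 33 higher and 40 lower, and scaled to that of the control guides 35 higher and 36 lower. Such scaling lowers every ratio of the screen alike, and the shares over all guides under it are not given here. Unscaled, the shares lie near those of the whole screen, and 4 and 3 of the 24 control guides passed the same limits.

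Guides against the same protease gene often disagreed. In the median gene the highest and the lowest guide lay 1.80 log2 units apart (1.75 over all 4529 genes with at least 3 guides), and in 29 of 70 protease genes (41.4%, beside 39.5% of all genes) they lay at least 2 units apart. The SD among guides of the same protease gene was 0.92, as large as the SD of 0.91 among all protease guides. Counting error was smaller than this, since the exact 95% counting interval of a protease guide's ratio had a median width of 0.26. In 31 of the 70 genes, 2 guides were above and 2 at or below a ratio of 0, beside 1582 of the 4529 genes of the screen. By the median over its guides, a gene passed 2-fold in 3 cases upward, Bace1, Adam39 and Prss53 (4.29%, beside 3.55% of all genes), and in 1 case downward, Mmp7 (1.43%, beside 1.83%). Every guide was above 0 in 10 protease genes (14.3%, beside 10.1% of all genes), and in 0 genes were all guides at or below 0 (beside 4% of all genes). These counts depend on the scaling: taken against the median of all guides, every guide was above it in 5 protease genes, Adam2, Adam20, Bace1, Prss38 and Rhbdf2 (7.14%, beside 6.65% of all genes), and at or below it in 3 (4.29%, beside 6.31%).

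Bace1, the beta-secretase that cuts the amyloid precursor protein and other surface proteins, had the highest gene median of the set. Its guides, SMprotein_01469 to SMprotein_01472, stood at 5.34, 41.7, 40.0 and 48.5 CPM in Rag1-KO hosts, against 23.3, 95.3, 105 and 62.7 CPM in C57BL/6 hosts. All 4 were more abundant in C57BL/6, with log2 ratios of 1.94, 1.17, 1.38 and 0.36. The median of 1.27 exceeded that of 99.0% of all genes in the screen, and 1.58 log2 units separated the highest from the lowest guide. With reads summed over the gene, 136 CPM in Rag1-KO hosts and 287 CPM in C57BL/6 hosts gave a ratio of 1.07 (95% counting interval 1.02 to 1.15). Bace1 was past 2-fold under each of the 9 alternative settings tried. Bace2, its closest relative, did not show this: 3 guides had ratios of 0.40, 0.36 and 0.32, and guide 1, the most abundant of the gene, went the other way at 175 CPM in Rag1-KO hosts and 120 CPM in C57BL/6 hosts (-0.54). Its median was 0.34, and the summed reads gave -0.09 (-0.14 to -0.04).

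Rhbdf2 encodes iRhom2, a rhomboid relative without protease activity that escorts the sheddase ADAM17 to the cell surface. Its guides, SMprotein_13651 to SMprotein_13654, stood at 28.9, 20.8, 13.6 and 41.2 CPM in Rag1-KO hosts, against 43.8, 44.2, 29.7 and 74.8 CPM in C57BL/6 hosts. The ratios of 0.59, 1.05, 1.08 and 0.84 lay within 0.49 log2 units of each other, a narrower range than in 97.7% of all genes, while the median of 0.95 exceeded that of 95.6% of genes. The lowest Rhbdf2 guide was higher than the lowest guide of 99.3% of genes, and 5 genes of the screen, Rhbdf2 included, had both a median as high and a range as small. The limits of that count are Rhbdf2's own values, and it is the smallest such count among the 70 protease genes (11 for Bace1). The guides of the active rhomboid proteases were mixed. Rhbdl2 had ratios of 0.43, -1.03, -0.51 and 1.40 with a median of -0.04. Rhbdl3 guides stood at 88.1, 179, 101 and 96.7 CPM in Rag1-KO hosts, against 152, 57.2, 112 and 23.4 CPM in C57BL/6 hosts, so that guides 2 and 4 were lower in C57BL/6 (-1.63 and -2.0) and guides 1 and 3 were not (0.78 and 0.15).

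Among the ADAM genes, guides were somewhat more abundant in C57BL/6 hosts, with a median ratio of 0.32 over 63 guides, 0.20 above the median of all guides. At least 2-fold higher abundance in C57BL/6 was found for 15 ADAM guides (23.8%, beside 14.9% of all guides) and at least 2-fold lower abundance for 5 (7.94%, beside 11.1%). ADAM guides were less abundant than the screen in both hosts. Their median was 30.5 CPM in Rag1-KO hosts, beside 40.7 over all guides, and 35.5 CPM in C57BL/6 hosts, beside 44.6. Split by mean abundance into 3 equal classes, all guides had upward shares of 18.3%, 15.2% and 11.2% from the least to the most abundant class. Whether abundance bears on the ADAM shares was not tested. Reads summed over the ADAM family gave a ratio of 0.12. The 6 genes without a working protease site had a median of 0.32 (23 guides) and the 9 with one a median of 0.28 (36 guides), while reads summed over each class gave 0.32 without and -0.10 with a working site. Adam39 was placed in neither class. Adam10, the sheddase that cuts Notch receptors, had guides at 27.3, 97.0, 119 and 9.84 CPM in Rag1-KO hosts, against 33.0, 77.5, 49.7 and 11.6 CPM in C57BL/6 hosts. Guide 3 alone was more than 2-fold lower in C57BL/6 (-1.24), the others lay between -0.32 and 0.26, and the gene's median was -0.05. The mean over the Adam10 guides was -0.27, and the summed reads gave -0.55 (-0.62 to -0.50). Adam9, another surface sheddase, split evenly, with ratios of 0.88 and 0.54 for guides 1 and 4 and of -0.54 and -0.57 for guides 2 and 3. The highest ADAM gene was Adam39, whose guides stood at 5.49, 27.5, 2.04 and 33.4 CPM in Rag1-KO hosts, against 8.92, 133, 9.36 and 20.7 CPM in C57BL/6 hosts. Guide 2 of Adam39 had the largest ratio of the family (2.23), guide 3 rested on 39 reads in Rag1-KO hosts and 254 in C57BL/6 hosts, and guide 4 was lower in C57BL/6 (-0.67). The Adam39 median was 1.19, and it was 0.72 with a pseudocount of 5 CPM and 0.99 as a mean over guides, both short of 2-fold, but 1.30 with a pseudocount of 0.5 CPM. With summed reads Adam39 reached 1.32, above the 1.07 of Bace1. Adam21, a testis ADAM, was the lowest gene (median -0.49), with guides 1 and 2 at -1.35 and -1.06 and guides 3 and 4 at 0.44 and 0.09. The lowest ADAM guide was guide 1 of Adam28, at 196 CPM in Rag1-KO hosts and 48.6 CPM in C57BL/6 hosts (-1.99), while guides 2 and 3 of the same gene were higher in C57BL/6 (0.71 and 0.80).

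MMP guides as a family had a median of 0.10 (75 guides), 0.02 below that of all guides, so that the direction depends on the scaling. Those against the 5 membrane-held MMPs had a median of -0.13 (20 guides), of which 5 were at least 2-fold lower in C57BL/6 hosts (25%, beside 11.1% of all guides) and 0 at least 2-fold higher (beside 14.9%). Those against the 14 secreted MMPs had a median of 0.17 (55 guides), with 4 at least 2-fold lower (7.27%) and 5 at least 2-fold higher (9.09%). Mmp17 and Mmp25, the 2 MMPs attached by a glycolipid (GPI) anchor, had the lowest values of the family after Mmp7. Mmp17 guides stood at 58.1, 75.7, 195 and 324 CPM in Rag1-KO hosts, against 38.2, 137, 64.8 and 129 CPM in C57BL/6 hosts. Guides 1, 3 and 4 of Mmp17 were lower in C57BL/6 (-0.59, -1.58 and -1.32) and guide 2 was higher (0.85), giving a median of -0.96 that was below that of 97.9% of genes. Mmp25 showed the same 3 to 1 split, with ratios of 0.73, -0.90, -1.14 and -0.54 and a median of -0.72. Of the transmembrane types, Mmp15 had a median of -0.32, with guide 4 at 283 CPM in Rag1-KO hosts and 130 CPM in C57BL/6 hosts. Mmp24 had 1 guide far lower in C57BL/6 (-1.94) and a median of 0.21. All 4 Mmp16 guides were above 0, between 0.02 and 0.66. Of the 5 membrane-held MMP genes, Mmp16 alone had mRNA of at least 1 CPM in control MC38 cells.

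The lowest protease gene of all was Mmp7, matrilysin, a small secreted MMP made by epithelial cells. Its guides, SMprotein_09043 to SMprotein_09046, stood at 52.8, 49.2, 87.4 and 41.0 CPM in Rag1-KO hosts, against 31.1, 84.3, 21.6 and 13.2 CPM in C57BL/6 hosts. Guides 3 and 4 were at least 2-fold lower in C57BL/6 (-1.97 and -1.57) and guide 1 was lower by less (-0.75), but guide 2 was higher (0.77). The median of -1.16 was below that of 99.1% of genes, and the summed reads gave -0.61 (-0.68 to -0.56), short of 2-fold. The highest MMP gene was Mmp2, the secreted gelatinase A, with guides at 94.2, 122, 38.6 and 20.9 CPM in Rag1-KO hosts, against 97.8, 208, 88.6 and 38.0 CPM in C57BL/6 hosts. All 4 Mmp2 ratios were above 0 (0.05, 0.76, 1.18 and 0.83, median 0.80), and so were all 4 of Mmp11, stromelysin 3 (0.10 to 0.59), and of Mmp10, stromelysin 2 (0.08 to 1.58). The other gelatinase, Mmp9, had a median of -0.20. Mmp20, the enamel protease, held both the highest and the lowest guide of the whole protease set. Its guide 1 had 25 reads in Rag1-KO hosts and 325 in C57BL/6 hosts (ratio 2.49, or 3.19 without the added CPM, interval 2.61 to 3.84). Its guide 4 had 236 reads in Rag1-KO hosts and 24 in C57BL/6 hosts (-2.82). The best-read guide of the gene, with 2779 reads in Rag1-KO hosts and 4747 in C57BL/6 hosts, had a ratio of 0.26.

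TMPRSS guides had a median of -0.05 (40 guides), with 3 guides past 2-fold in each direction (7.5%, beside 14.9% of all guides upward and 11.1% downward). By gene median 0 of 10 TMPRSS genes passed it in either direction, beside 3.55% of all genes upward and 1.83% downward. The gene values ran from -0.28 for Tmprss11f to 0.55 for Tmprss7, which encodes matriptase-3. Tmprss11f was at -0.57 as a mean over guides and at -0.96 with summed reads. Guide 3 of Tmprss11f was among the 5 most abundant protease guides of Rag1-KO hosts, at 241 CPM there and 41.7 CPM in C57BL/6 hosts (-2.50), while the other 3 guides of the gene lay between -0.34 and 0.77. Tmprss6, matriptase-2, which restrains the iron hormone hepcidin in the liver, had the widest spread of the family. Its guides stood at 28.0, 82.2, 28.5 and 58.0 CPM in Rag1-KO hosts, against 160, 72.0, 49.5 and 16.7 CPM in C57BL/6 hosts, ratios of 2.47, -0.19, 0.78 and -1.73 that leave a median of 0.29. Tmprss3 guide 4 was among the 5 most abundant protease guides of C57BL/6 hosts, at 172 CPM in Rag1-KO and 227 CPM in C57BL/6 hosts.

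PRSS guides had a median of 0.11 (80 guides), and in 13 of the 20 genes (65.0%, beside 39.5% of all genes) the guides lay at least 2 log2 units apart. Prss53, a polyserase, was the highest, with 3 guides higher in C57BL/6 (1.18, 0.89 and 1.45) and guide 1 lower (-1.36), a median of 1.04; the mean over its guides was 0.54 and the summed reads gave 0.86, both short of 2-fold. Its guides stood at 28.6, 27.5, 43.5 and 26.1 CPM in Rag1-KO hosts, against 10.5, 63.8, 81.4 and 72.8 CPM in C57BL/6 hosts. Prss58 was the lowest (median -0.56), led by guide 1 at 33.8 CPM in Rag1-KO hosts and 7.00 CPM in C57BL/6 hosts. Prss8, prostasin, a membrane-anchored activator of the epithelial sodium channel, had a median of 0.14. Its most abundant guide stood at 229.5 CPM in Rag1-KO and 240.3 CPM in C57BL/6 hosts, and guide 2 stood at 50.7 CPM in Rag1-KO and 189.7 CPM in C57BL/6 hosts (1.88). Prss16, the thymus-specific serine protease, had ratios of -0.26, 1.37, -1.0 and 1.06, so that its median of 0.40 lies between 2 higher and 2 lower guides. Single guides dominated several other genes. The most abundant protease guide in Rag1-KO hosts was guide 3 of Prss23, at 351 CPM there and 129 CPM in C57BL/6 hosts (-1.44), and the other 3 Prss23 guides lay between 0.03 and 0.63. The most abundant in C57BL/6 hosts was guide 4 of Prss38, at 92.3 CPM in Rag1-KO and 307 CPM in C57BL/6 hosts (1.72), and its other 3 guides lay between 0.17 and 0.22. The Prss38 median was 0.21, the mean over its guides 0.58, and with summed reads, which guide 4 leads, it passed 2-fold (1.04). Prss35 guide 3 reached 118 CPM in Rag1-KO and 225 CPM in C57BL/6 hosts, while guide 4 of that gene was lower in C57BL/6 (-1.35). Other single guides with wide ratios were guide 3 of Prss33 (1.98), guide 3 of Prss3 (1.95, from 55 reads in Rag1-KO and 379 in C57BL/6 hosts) and guide 3 of Prss51 (-2.06). At the other end, the 4 guides of Prss12, the secreted neurotrypsin, kept within 0.41 log2 units of each other around a median of 0.00.

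RNA sequencing of 3 libraries of control MC38 cells in culture showed which of the 70 targets had mRNA in the line that carried the guides. A mean of at least 1 CPM, here counts per 1000000 of the RNA library and not divided by transcript length, was reached by 15 genes, another 7 were below it, 15 are listed at 0 and the symbols of 33 are not in the RNA table. Bace1 stood at 42.4 ± 2.44 CPM, Rhbdf2 at 20.6 ± 2.60 CPM, Adam10 at 137 ± 4.24 CPM and Adam9 at 145 ± 11.7 CPM (SD, n = 3 each). The median of the gene values was 0.31 for the 15 genes with at least 1 CPM, -0.28 for the 7 below it, 0.22 for the 15 listed at 0 and 0.21 for the 33 with no RNA value, beside 0.15, 0.06, 0.08 and 0.12 over all genes of the screen in the same classes. All guides were above 0 in 6 of the 15, namely Bace1, Rhbdf2, Mmp2, Mmp10, Mmp11 and Mmp16 (40.0%, beside 11.2% of all screened genes with such mRNA). In Mmp2, Mmp10, Mmp11 and Mmp16 the lowest guide lay between 0.02 and 0.10, with a counting interval that includes 0. Of the 55 genes without such mRNA or with no RNA value, 4 had every guide above 0, Adam2, Adam20, Prss3 and Prss38 (7.27%, beside 9.7%). Against the median of all guides, 2 of the 15 remained, Bace1 and Rhbdf2 (13.3%, beside 8.17%). Of the protease genes past 2-fold, Bace1 alone reached 1 CPM: Prss53 is listed at 0, and Adam39 and Mmp7 are not in the RNA table. In the whole screen, 53 of the 161 genes past 2-fold upward and 17 of the 83 downward reached it, as did 1200 of all 4529 genes. Among the membrane-held MMP genes, Mmp16 stood at 30.8 ± 1.52 CPM. Mmp17 stood at 0.43 ± 0.14 CPM (19 reads over 3 libraries) and Mmp24 at 0.19 ± 0.15 CPM (8 reads), and Mmp15 and Mmp25 are listed at 0 in cells.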

How the data were processed

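Guides were sequenced from MC38 cells implanted in B6-Rag1-KO and in C57BL/6 mice, 1 library each, and mRNA from control MC38 cells (3 libraries) and control MC38 tumours (5). Both deposited tables hold whole-number read counts, per guide and per gene symbol, which the authors did not normalise; no source used here says how guides were counted. For the RNA, the submitters' processing notes name STAR 2.7.1a and HTSeq 0.13.5 among other tools, without roles. The notes give the genome build as hg38, a human build, although the samples are mouse, and how this bears on the RNA counts was not tested. Guide counts were scaled to CPM by the library total in Python 3.11.15 (pandas 2.3.3, scipy 1.17.1). The log2 ratio used a pseudocount of 1 CPM and at least 20 reads over both libraries, and a gene's value was the median over at least 3 guides; 38 guides failed the filter. Ratio intervals are exact (Clopper-Pearson) 95% intervals of the reads of both libraries, without pseudocount. RNA counts totalled 14240353 to 15155599 in control cells and 19630410 to 28316572 in control tumours. The ratio calculation was checked on simulated counts. The named genes were widely studied members, the highest and lowest gene of each family, genes past 2-fold, and genes of the 5 most abundant guides per host and of the 6 highest and 6 lowest guides with at least 100 reads; some others are named for contrast after their values were seen. Members, families and protein classes, which come from general knowledge of the proteins, were chosen with earlier results of these data known. Alternatives varied pseudocount, filter, scaling and gene summary, and a cut at the median of all or of control guides was added after seeing the data.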

Additional observations from a re-analysis of the deposited data

How the results depend on the processing

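With 1 library per host, no result has a replicate check, and no alternative changes that. No paired analysis was possible because each host has 1 library and no test was made. The median ratio of protease guides, 0.19, was 0.17 with a pseudocount of 5 CPM or with library totals taken without the 100 most abundant guides of each library, 0.11 when scaled to control guides and 0.0714 when scaled to the median of all guides. With a pseudocount of 0.5 CPM, no filter or at least 100 reads it was 0.20, 0.19 and 0.19. Guides past 2-fold numbered 42 higher and 29 lower in C57BL/6. The split was 33 higher and 40 lower when scaled to all guides and 35 and 36 when scaled to control guides. Both scalings lower every ratio of the screen alike. Over the other settings 33 to 42 were higher and 26 to 32 lower. The 3 genes past 2-fold upward became 1 with a pseudocount of 5 CPM and 1 with the mean over guides, and 2 when scaled to all guides or to control guides, where Prss53 fell short (0.91 and 0.95). The 1 gene downward became 2 when scaled to all guides or to control guides, and 0 with summed reads or with the mean over guides. Bace1 ran from 1.07 to 1.28 and Rhbdf2 from 0.83 to 0.96 over 9 alternatives, whereas Mmp7 ran from -1.28 to -0.61 and Prss53 from 0.54 to 1.05. Signs changed under some setting for the MMP, TMPRSS and PRSS families and for Adam9, Adam28, Bace2, Mmp20, Mmp24, Prss16, Prss23, Prss33, Prss51 and Rhbdl2, all of which had main values within 2-fold. With summed reads or the mean over guides, a family's value was the median over its genes, while its main value was the median over guides. TMPRSS changed sign only under those settings (0.13 and 0.16). Cuts at the median of all guides or of control guides, chosen after seeing the data, left 5 or 7 of the 10 genes with every guide above the cut, and 2 or 3 of the 6 such genes with mRNA.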

Other observations

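Many of the targeted proteases lie next to relatives in the mouse genome (GENCODE M21, GRCm38), and whether a guide matches more than 1 of them was not tested. Grouping members no more than 1 Mb apart gave 6 clusters of at least 3 genes. Being above 0 was common in the screen, where 59.3% of all genes had a median above the 0.0024 of Prss12. The 9 MMP genes on chromosome 9 (Mmp13, Mmp12, Mmp1b, Mmp3, Mmp1a, Mmp10, Mmp8, Mmp20 and Mmp7) had gene medians from -1.16 to 0.77 and a guide median of 0.13 (35 guides). In this cluster, which holds the lowest gene of the set, Mmp7, 6 of 9 genes were above 0, near the share of the whole screen. The testis ADAM genes Adam25, Adam20 and Adam39 on chromosome 8 were all above 0 (0.64, 0.48 and 1.19), with a guide median of 0.62 (12 guides). The 4 Tmprss11 genes on chromosome 5 ran from -0.28 to 0.26 and the 5 PRSS genes on chromosome 6, which include the trypsins Prss1, Prss2 and Prss3, from -0.56 to 0.76. Neighbouring trypsin genes differed, at 0.31 for Prss1, -0.52 for Prss2 and 0.76 for Prss3, a difference that was not tested.

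In control tumours, whose libraries hold host RNA as well as RNA of the cancer cells, several targets listed at 0 in cultured cells had reads. Mmp13, a collagenase, ranged from 14.04 to 22.0 CPM (median 16.9, n = 5), Mmp12, the macrophage elastase, from 3.57 to 15.5 CPM (median 10.7) and Adam12 from 3.72 to 8.65 CPM (median 4.52). Bace1 ranged from 32.6 to 40.3 CPM (median 36.3) and Rhbdf2 from 36.6 to 41.6 CPM (median 37.1). Which cells these tumour reads came from was not tested.

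A guide against Adam2 (4 reads in Rag1-KO and 14 in C57BL/6 hosts) and one against Mmp20 (4 reads in Rag1-KO and 9 in C57BL/6 hosts) were nearly absent from both libraries, and both had too few reads for a ratio. With the screen split by mean abundance into 3 equal classes, the SD of the protease ratios was 0.96, 0.91 and 0.88 from the least to the most abundant class, beside 0.96, 0.87 and 0.92 over all guides.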
